A study of Homo sapiens with 8 samples.

Results

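The genes described here are 10 members of the actin cytoskeleton and contractile apparatus: the cytoplasmic actins ACTB and ACTG1, the tropomyosins TPM1, TPM2 and TPM4, the transgelins TAGLN and TAGLN2, the calponin CNN2, the alpha-actinin ACTN1 and the myosin light chain MYL9. They were taken by symbol from a table of 58870 genes, and all 10 were found and tested among 13860 genes with enough counts. The choice was made with the difference between the groups known, in particular a strong rise of TAGLN2. The values of the 10 genes are therefore given as a description and without p-values, and nothing is read from how many passed a threshold. RNA was sequenced in 8 libraries made from Panc 10.05 cells, a human line established from a ductal adenocarcinoma of the pancreas. Of these, 4 came from control cells and 4 from cells carrying an ELAPOR1 transgene, labelled as overexpression. ELAPOR1 encodes a transmembrane protein of endosomes and lysosomes. The labels do not state the vector or promoter, whether the control cells carried an empty vector, whether the cells were a clone or a pool, or whether replicates were separate cultures. Every p-value below therefore measures the spread between these libraries, which may be technical.

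Actin monomers polymerise into filaments that give an epithelial cell its cortex, its stress fibres and its junctional belts. Tropomyosins lie along the filament and govern which other proteins reach it, alpha-actinins and filamins link filaments to each other, transgelins and calponins bind and stabilise them, and myosin II, switched on by phosphorylation of its regulatory light chain, pulls on them. Several genes of this machinery are textbook targets of serum response factor (SRF), which binds a sequence called the CArG box and is held in check by the pool of unpolymerised actin through its coactivators MRTFA and MRTFB.

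The libraries held 16558600 to 18128757 expected counts in control and 13765509 to 17258166 in ELAPOR1 cells. ELAPOR1 itself, listed as KIAA1324, had 1 to 4 counts in the control libraries and 5910 to 7368 in the ELAPOR1 libraries, as labelled. The epithelial markers KRT8, KRT18, KRT19, EPCAM and CDH1 summed to 10895 to 12037 CPM (counts scaled to the library total after adjustment by the trimmed mean of M-values, TMM) in control and 9787 to 10113 CPM in ELAPOR1 libraries. KRT8 (log2 fold change -0.16, edgeR adjusted p = 9.35e-06) and KRT18 (-0.36, adjusted p = 2.25e-12) were lower, KRT19 (0.25, adjusted p = 3.43e-07) and CDH1 (0.11, adjusted p = 0.00294) were higher, and EPCAM was not called. Of 8 fibroblast markers 4 had no count in any library (COL1A2, DCN, LUM and THY1), and their summed level was 3.13 to 4.38 CPM in control and 2.94 to 3.25 CPM in ELAPOR1 libraries. Of 8 smooth muscle markers, MYH11, DES, CNN1 and LMOD1 had at most 1 count in a library, ACTG2 had none, and the summed level, nearly all from SMTN, was 135.9 to 144.2 CPM in control and 139 to 144.6 CPM in ELAPOR1 libraries. Of the leukocyte markers CD3E had no count and PTPRC at most 1, and CD68 fell from 84.4 ± 2.49 to 75.7 ± 2.61 CPM (n = 4, SD, edgeR adjusted p = 0.00214). The part of these levels in the results below was not tested, and in such bulk libraries fewer cells with a transcript and less of it per cell cannot be told apart.

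The actins are the members most alike in sequence, and whether a read can be assigned to ACTB or to ACTG1 depends on the positions at which they differ. Their coding sequences, both of 1125 bases in GENCODE release 29, were identical at 1027 positions (91.3%). The first 90 coding bases are shown, because reads over them tell the genes apart, with the 17 differing bases in capitals.
ACTB: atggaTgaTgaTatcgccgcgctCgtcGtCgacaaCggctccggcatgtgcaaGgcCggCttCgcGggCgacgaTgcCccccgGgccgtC
ACTG1: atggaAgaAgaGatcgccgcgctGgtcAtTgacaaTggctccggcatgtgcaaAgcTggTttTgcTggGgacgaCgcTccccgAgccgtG
The differences are scattered, so that 10 stretches of 50 bases in the ACTB coding sequence were also present in that of ACTG1. For TAGLN against TAGLN2 the aligned coding sequences were 70.9% identical, and for TPM1 against TPM2, TPM1 against TPM4 and TPM2 against TPM4 they were 79.0%, 75.9% and 78.5% identical. None of those pairs shared a stretch of 50 bases.

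RefSeq promoter windows (GRCh38.p14, 250 bases before to 50 after a start) were found for 7 of the 10 members, 15 windows in all. TAGLN, ACTB and MYL9 had no window and were not searched. A CArG box, searched on both strands, was present in 4 of the 15 windows (26.7%), from TPM4, ACTN1, ACTG1 and CNN2, against 1.29% of all 35116 windows. The stretches are shown because this is the site through which SRF acts, with the CArG box in capitals, 5′ to 3′ on the strand of the gene.
ACTG1: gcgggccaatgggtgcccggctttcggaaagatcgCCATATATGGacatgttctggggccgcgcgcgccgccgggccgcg
CNN2: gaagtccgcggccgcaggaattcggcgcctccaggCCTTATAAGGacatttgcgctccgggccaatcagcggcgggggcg
TPM4: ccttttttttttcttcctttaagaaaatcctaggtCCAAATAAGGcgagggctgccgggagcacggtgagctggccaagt
ACTN1: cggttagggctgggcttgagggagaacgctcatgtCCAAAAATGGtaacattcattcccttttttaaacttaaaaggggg
They lie at chr17:81512849-81512928 (minus strand), chr19:1026484-1026563 (plus), chr19:16067330-16067409 (plus) and chr14:68977693-68977772 (minus), and the box begins 94, 89, 173 and 171 bases before the start that defines each window. The ACTN1 window belongs to an alternative start, 1874 bases from that of the transcript used for lengths, and the 3 others lie within 27 bases of theirs. The windows of TAGLN2, TPM1 and TPM2 did not hold these letters. The TPM1 window lies 5739 bases from the start of the transcript used for lengths, so the bases before that start were not searched. The TAGLN2 windows lie 225 to 1998 bases from theirs. TGAGTCA, the site bound by AP-1 factors, was present in 2 of the 15 windows (13.3%), against 4.95% of all windows. Both are among the 3 windows of TAGLN2, a gene chosen with its rise known, so nothing is read from this. In the window at chr1:159925458-159925757 the site begins 23 bases after the start. The window at chr1:159924596-159924845 (minus strand), of an alternative start 1137 bases from that of the transcript used for lengths, is shown because TAGLN2 had the largest difference, with TGAGTCA (read on the other strand as TGACTCA) and GGGCGG in capitals.
TAGLN2: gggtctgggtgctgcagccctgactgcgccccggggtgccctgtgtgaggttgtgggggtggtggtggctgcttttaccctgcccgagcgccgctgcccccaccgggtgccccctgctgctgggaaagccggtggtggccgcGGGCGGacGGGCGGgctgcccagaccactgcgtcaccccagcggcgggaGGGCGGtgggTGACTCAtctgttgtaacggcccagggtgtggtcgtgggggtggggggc
GGGCGG was present in 12 of the 15 windows (80%) and in 45% of all windows. A match describes the letters and does not show that a factor is bound. The 4 genes with a CArG box did not share a direction of difference: the log2 fold changes (ELAPOR1 minus control) were 0.19 for TPM4, 0.06 for ACTN1, -0.04 for ACTG1 and -0.15 for CNN2.

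TAGLN2 stood far apart from the other 9 members. Log2 fold changes and standard errors (SE) come from an edgeR fit of all tested genes. Of the 10 members, 5 had a positive and 5 a negative log2 fold change, with a median of 0.0085 beside 0.00087 for all tested genes. At an edgeR adjusted p-value under 0.05, 6 of the 10 passed (3 higher, 3 lower). Among all tested genes 44.7% passed, 22.6% higher and 22.1% lower. Control and ELAPOR1 libraries were fully separated in CPM for 7 members, and for 39.2% of all tested genes. Since the members were chosen from this contrast, nothing is read from these counts.

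**Figure D1:**
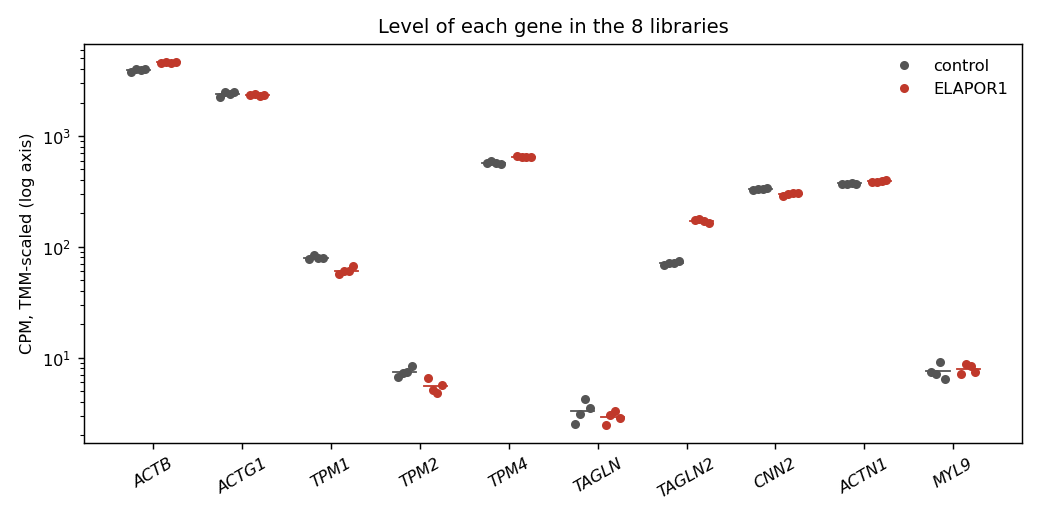
Level of the 10 genes in CPM (log axis) in the 4 control (grey) and 4 ELAPOR1 (red) libraries, 1 point per library and a bar at the group mean. TAGLN2 moves from 71.2 to 172 CPM, while the other genes keep nearly the same place on the axis.

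ACTB and ACTG1 encode beta- and gamma-actin, the building blocks of the filaments of non-muscle cells. ACTB (ENSG00000075624.15, chromosome 7, 5527147 to 5563784, minus strand) was measured at 3809, 4039, 3908 and 4058 CPM in control replicates 1 to 4 and at 4564, 4632, 4592 and 4630 CPM in the ELAPOR1 replicates. Every ELAPOR1 library lay above every control library. The means were 3954 ± 117 and 4605 ± 32.7 CPM (n = 4, SD), which is 16.5% more and a log2 fold change of 0.22 (SE 0.025). ACTG1 (ENSG00000184009.11, chromosome 17, 81509971 to 81523847, minus strand) was at 2267, 2469, 2381 and 2511 CPM in control and 2336, 2414, 2283 and 2321 CPM in ELAPOR1 libraries. The groups overlapped, with means of 2407 ± 108 and 2338 ± 54.7 CPM (n = 4, SD) and a log2 fold change of -0.04 (SE 0.029). Its sign was not fixed, since it was 0.0051 when GC content and length trends were removed from every library.

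The ratio of ACTB to ACTG1 transcripts therefore differed between the groups. Divided by transcript length, ACTB had 1.93 ± 0.0315 times the level of ACTG1 in control (1.90 to 1.97) and 2.31 ± 0.0486 times in ELAPOR1 libraries (2.25 to 2.36, n = 4, SD), with no overlap. Together both genes took 0.605% to 0.651% of all counts in control and 0.694% to 0.709% in ELAPOR1 libraries. Pseudogenes named after ACTB took 0.0015% to 0.0201% and those named after ACTG1 0.0437% to 0.0867% of the counts of the gene and its pseudogenes, so reads listed under such copies were few. Of the 50-base stretches of the ACTB and ACTG1 transcripts, 10.3% and 3.58% also occur in transcripts of other genes. The ACTB neighbourhood was also higher: of 20 other tested genes within 1 Mb, 12 were higher and 1 lower (edgeR adjusted p-value under 0.05), with a median log2 fold change of 0.18, and the part of this in the ACTB value was not tested.

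Among the tropomyosins the genes went in different directions. TPM1 (ENSG00000140416.21, chromosome 15, 63042632 to 63071915) encodes the alpha chain, found in stress fibres and muscle. It was at 76.9, 83.7, 78.5 and 78.5 CPM in control and 56.3, 60.1, 60.2 and 67.3 CPM in ELAPOR1 libraries. All ELAPOR1 libraries lay below all control libraries, and the log2 fold change was -0.38 (SE 0.048) on means of 79.4 ± 2.93 and 61.0 ± 4.58 CPM (n = 4, SD). Of 10 other tested genes within 1 Mb of TPM1, 3 were lower and 0 higher (edgeR adjusted p-value under 0.05), with a median log2 fold change of -0.15. The part of this in the TPM1 value was not tested. TPM2 (ENSG00000198467.14, chromosome 9, 35681992 to 35690121), the beta chain, was a low gene at 6.71, 7.26, 7.43 and 8.35 CPM in control and 6.57, 5.06, 4.75 and 5.71 CPM in ELAPOR1 libraries. The groups were separated by a narrow gap, with a log2 fold change of -0.42 (SE 0.13).

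TPM4 (ENSG00000167460.16, chromosome 19, 16067021 to 16103005), a tropomyosin of non-muscle cells, was at 564, 588, 573 and 556 CPM in control and 664, 646, 650 and 647 CPM in ELAPOR1 libraries. Every ELAPOR1 library lay above the controls, with a log2 fold change of 0.19 (SE 0.027) on means of 570 ± 13.8 and 652 ± 8.08 CPM (n = 4, SD). Expected counts of TPM4 were not whole in all 8 libraries, and 22.9% of the 50-base stretches of its transcript also occur in AC098614.1 and AF201337.1. AF201337.1 had at most 3.55 expected counts in any library. TPM4 pseudogenes matched by name (TPM4P1, AF201337.1 and AC098614.3) held at most 0.172% of the joint counts. AC098614.3, the TPM4 copy with at least 10 counts in a library, had at most 14.06 counts.

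TPM3, which is no member but completes the family, rose from 601 ± 7.63 to 786 ± 9.44 CPM (n = 4, SD), with 0.39 as log2 fold change (SE 0.026, edgeR adjusted p = 4.49e-14). Per length, TPM3 made up 55.2% to 57.2% of the summed level of the 4 tropomyosin genes in control and 61.3% to 62.4% in ELAPOR1 libraries. TPM4 made up 31.6% to 32.8% and 30.4% to 31.1%, and TPM1 10.5% to 11.3% and 6.40% to 7.69%. TPM2 stayed below 1%, at 0.687% to 0.867% in control and 0.413% to 0.562% in ELAPOR1 libraries. The level of TPM4 was 2.97 ± 0.0613 times that of TPM1 in control and 4.44 ± 0.366 times in ELAPOR1 libraries (n = 4, SD). These shares rest on 1 transcript per gene and would shift with the isoforms in use, which gene counts do not show.

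**Figure D2:**
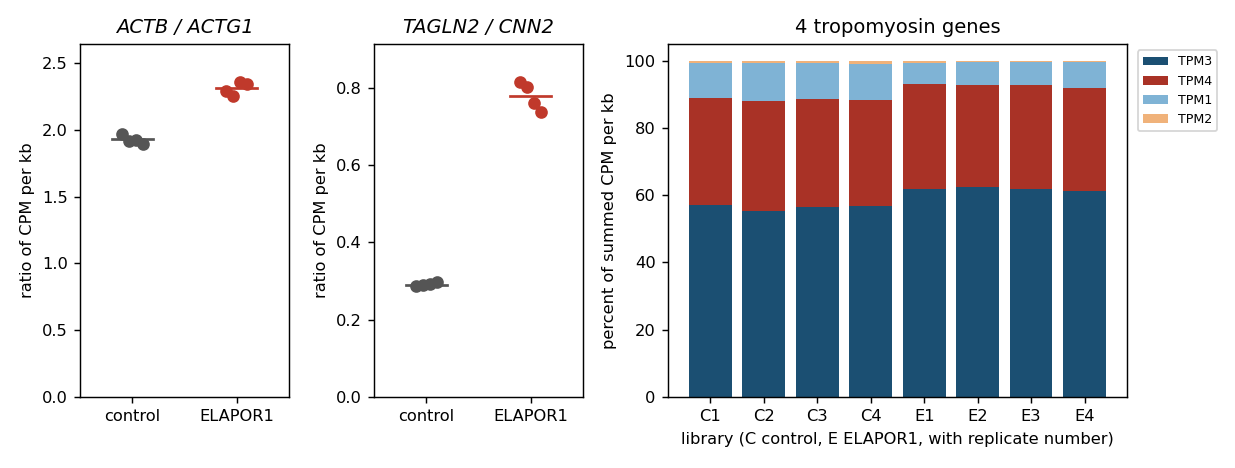
Ratio of ACTB to ACTG1 and of TAGLN2 to CNN2 (CPM per kilobase, 1 point per library, bar at the mean) and the share of TPM3, TPM4, TPM1 and TPM2 in their summed CPM per kilobase in each library. The ACTB to ACTG1 ratio goes from 1.93 to 2.31, the TAGLN2 to CNN2 ratio from 0.291 to 0.779, and TPM3 gains share while TPM1 loses it.

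The transgelins and CNN2 share a calponin homology domain and bind along actin filaments. TAGLN2 (ENSG00000158710.14, chromosome 1, 159918107 to 159925732, minus strand) encodes transgelin 2, the form of epithelial and blood cells. It was at 68.4, 70.9, 71.0 and 74.4 CPM in control and 174, 178, 170 and 165 CPM in ELAPOR1 libraries. The lowest ELAPOR1 library was thus above the highest control library by 1.15 on the log2 scale. The means of 71.2 ± 2.50 and 172 ± 5.52 CPM (n = 4, SD) give a log2 fold change of 1.27 (SE 0.038), or 2.41-fold. It stood at percentile 99.2 of all tested genes. Among the 4626 genes averaging 50 CPM or more, 3 had a log2 fold change at least as high, including TAGLN2 and the overexpressed ELAPOR1 (11.4). TAGLN2 was chosen with its rise known, so nothing is read from this rank.

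TAGLN2P1, a pseudogene that carries 9.32% of the 50-base stretches of the TAGLN2 transcript, had at most 3.7 expected counts in any library. No annotated gene overlaps TAGLN2 or TPM2, whereas each of the other members overlaps at least 1, such as TPM1-AS at TPM1. Of 15 other tested genes within 1 Mb, 6 were higher and 2 lower (edgeR adjusted p-value under 0.05), with a median log2 fold change of 0.10. The nearest, IGSF9, named for its position, rose by 0.33 (SE 0.10, edgeR adjusted p = 0.00838). The next in distance were AL590560.1, not called (0.02, adjusted p = 0.956), and PIGM, higher by 0.55 (SE 0.075, edgeR adjusted p = 2.44e-07). The part of the region in the TAGLN2 value was not tested.

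TAGLN (ENSG00000149591.16, chromosome 11, 117199321 to 117204782), transgelin or SM22 alpha and a marker of smooth muscle and myofibroblasts, was the lowest member. It was at 2.49, 3.07, 4.20 and 3.54 CPM in control and 2.46, 3.06, 3.31 and 2.83 CPM in ELAPOR1 libraries, from 40 to 70 counts each. The groups overlapped, with a log2 fold change of -0.19 (SE 0.19). PCSK7, named after its value was seen because its span overlaps that of TAGLN in the annotation, rose by 0.52 (edgeR adjusted p = 7.49e-10). None of the 50-base stretches of the TAGLN transcript occurs in a transcript of another gene. The TAGLN2 to TAGLN ratio per length was 29.9 ± 5.89 in control and 80.5 ± 10.9 in ELAPOR1 libraries (n = 4, SD).

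CNN2 (ENSG00000064666.15, chromosome 19, 1026581 to 1039068), the calponin of non-muscle cells, was at 325, 333, 330 and 341 CPM in control and 289, 301, 304 and 303 CPM in ELAPOR1 libraries. All ELAPOR1 libraries lay below the controls, with a log2 fold change of -0.15 (SE 0.030) on means of 332 ± 6.81 and 299 ± 6.73 CPM (n = 4, SD). Per length, TAGLN2 was at 0.286 to 0.296 of the level of CNN2 in control and at 0.739 to 0.816 of it in ELAPOR1 libraries. CNN3, the acidic calponin and no member, fell from 731 ± 10.2 to 636 ± 9.37 CPM (n = 4, SD, log2 fold change -0.20, edgeR adjusted p = 1.18e-07), while CNN1 had at most 1 count in any library.

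ACTN1 (ENSG00000072110.13, chromosome 14, 68874143 to 68979440, minus strand), the alpha-actinin that bundles filaments at focal adhesions and stress fibres, was at 371, 372, 378 and 372 CPM in control. It was at 381, 386, 390 and 397 CPM in ELAPOR1 libraries. The groups did not overlap but lay within 0.0128 of each other on the log2 scale, and the log2 fold change was 0.06 (SE 0.028). With GC content and length trends removed it was 0.0071 (SE 0.024). Expected counts of ACTN1 were not whole in all 8 libraries, and 0.911% of the 50-base stretches of its transcript also occur in ACTN4. ACTN4, named after its value was seen, was higher by 0.35 (edgeR adjusted p = 1.60e-13). The part of shared reads in the ACTN1 value was not tested. MYL9 (ENSG00000101335.10, chromosome 20, 36541484 to 36551447), a regulatory light chain of smooth muscle and non-muscle myosin II, was at 7.48, 7.08, 9.05 and 6.40 CPM in control and 7.18, 8.78, 8.35 and 7.44 CPM in ELAPOR1 libraries. The groups overlapped, with a log2 fold change of 0.08 (SE 0.12), and the precision is limited by its 105 to 151 counts per library.

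**Figure D3:**
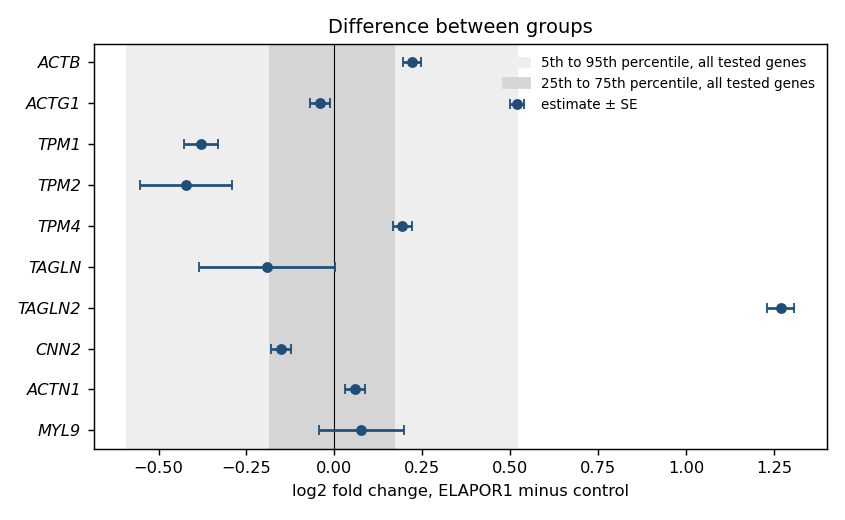
Log2 fold change (ELAPOR1 minus control) of the 10 genes with SE as bars, over the range of all tested genes (5th to 95th percentile, -0.59 to 0.52, light grey; 25th to 75th, -0.18 to 0.17, dark grey). TAGLN2 at 1.27 lies outside both ranges and the other 9 genes within the wider one.

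Divided by the length of the chosen transcript, levels in control ran from ACTB (2058 ± 60.9 CPM per kilobase) over ACTG1 (1067 ± 47.8), TPM4 (225 ± 5.44), CNN2 (152 ± 3.12), ACTN1 (98.7 ± 0.824), TPM1 (75.7 ± 2.80) and TAGLN2 (44.4 ± 1.56) to TPM2 (5.34 ± 0.491), MYL9 (2.66 ± 0.398) and TAGLN (1.53 ± 0.333, n = 4, SD). No neighbours in this order overlapped between libraries. In ELAPOR1 libraries TAGLN2 (107 ± 3.44 CPM per kilobase) lay above TPM1 (58.1 ± 4.37) and overlapped ACTN1 (103 ± 1.72, n = 4, SD). The order of the other genes was the same. Part of the order depends on the length used: over all annotated exons CNN2 came before TPM4 (91.1 against 66.1 CPM per kilobase in control), TAGLN2 before TPM1 (28.6 against 6.17) and MYL9 before TPM2 (2.66 against 2.29). Libraries of a group were close to each other, with a coefficient of variation from 0.711% for ACTB in ELAPOR1 libraries to 21.7% for TAGLN in control.

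Other genes of the actin machinery were described from 7 lists of 113 genes that hold no member. Of these 99 were tested, and 39 were higher and 22 lower in ELAPOR1 libraries (edgeR adjusted p-value under 0.05). That is 61.6% called against 44.7% of all tested genes, 39.4% higher against 22.6%, and 22.2% lower against 22.1%. The lists were chosen with earlier results of these data known, and their genes were not matched to the others for level. Their median log2 fold change was 0.06. Changes were mostly small: against a 1.5-fold change edgeR called 2 higher and 1 lower.

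Crosslinkers and bundlers were mostly higher. Of 13 tested genes 10 rose and 1 fell, with a median log2 fold change of 0.33. That is 76.9% higher and 7.69% lower, against 22.6% and 22.1% of all tested genes. FLNA, the filamin that joins filaments into networks, rose from 1226 ± 17.8 to 1710 ± 25.9 CPM (n = 4, SD), with 0.48 as log2 fold change (SE 0.025, edgeR adjusted p = 6.43e-17). LCP1, the plastin of blood cells that many carcinomas also express, rose from 21.5 ± 1.67 to 36.8 ± 1.39 CPM (0.77, SE 0.065, adjusted p = 7.38e-12). The gene that fell, ACTN2, the muscle alpha-actinin, was named after its value was seen and rests on at most 33 counts (-0.79, edgeR adjusted p = 0.0425). DESeq2 and limma-voom called 10 higher and 0 lower in this list. The longest transcripts of this list had a median of 5016 bases against 3456 for all tested genes, and with trends against GC content and length removed 10 were again higher and 1 lower.

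Of 18 tested genes of non-muscle myosin II and its regulators, 3 were higher, 4 lower and 11 not called (median 0.04). The shares, 16.7% higher and 22.2% lower, were near or below those of all tested genes (22.6% and 22.1%). RHOB, a small GTPase of endosomes that also acts on actin, rose from 8.34 ± 1.06 to 18.2 ± 1.54 CPM (n = 4, SD, log2 fold change 1.13, edgeR adjusted p = 1.25e-11). ROCK2, a kinase that promotes myosin light chain phosphorylation, rose by 0.35 (adjusted p = 1.08e-09), and MYH9, the main non-muscle heavy chain and named after its value was seen, by 0.35 (edgeR adjusted p = 1.81e-12). The heavy chains did not share a direction. MYH14 was lower (-0.22, edgeR adjusted p = 5.86e-06) and MYH10 was not called (0.08, adjusted p = 0.453), both named after their values were seen. The light chain MYL12A, a close relative of MYL9, fell from 458 ± 18.1 to 377 ± 9.48 CPM (n = 4, SD, -0.28, edgeR adjusted p = 2.73e-09). MYL12A lies on the short arm of chromosome 18. Of the 11 other tested genes within 1 Mb of MYL12A 7 were lower and 0 higher, with a median of -0.31. MYL12B, in the same region and named after its value was seen, had a log2 fold change of -0.20 (edgeR adjusted p = 3.94e-07). The part of the region in these results was not tested. MYLK, the myosin light chain kinase, was lower by a log2 fold change of -0.38 (edgeR adjusted p = 0.0149), a call that was lost without control replicate 3 (adjusted p = 0.0562), ELAPOR1 replicate 3 (0.0617) or ELAPOR1 replicate 4 (0.0539).

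Of 35 genes of actin turnover and nucleation, all tested, 13 rose, 8 fell and 14 were not called (median 0.03). The shares were 37.1% higher and 22.9% lower, against 22.6% and 22.1% of all tested genes. LIMK2, a kinase that inactivates cofilin, rose by 0.34 (edgeR adjusted p = 3.97e-04), and ENAH, which speeds filament growth, by 0.25 (adjusted p = 2.29e-05). PFN2, a profilin, fell by 0.26 on the log2 scale (edgeR adjusted p = 0.00264). TMSB10, a thymosin that binds actin monomers, was lower by -0.21 (edgeR adjusted p = 4.46e-07), a call lost when GC content and length trends were removed (-0.05, adjusted p = 0.115).

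Of 20 linkers between actin and membranes or adhesions, 11 rose and 4 fell (median 0.11). The shares were 55% higher and 20% lower, against 22.6% and 22.1% of all tested genes. With GC content and length trends removed 7 rose and 3 fell. CSRP1, a LIM protein of actin bundles, rose from 30.5 ± 2.14 to 47.3 ± 1.84 CPM (n = 4, SD, log2 fold change 0.63, edgeR adjusted p = 4.97e-11), and PDLIM7 by 0.47 (adjusted p = 2.51e-12). FHL2, a LIM-only cofactor, changed by -0.23 (edgeR adjusted p = 2.16e-05), and NHERF1, the partner of ezrin, by -0.15 (adjusted p = 0.00555), a call lost with the same trends removed (-0.07, adjusted p = 0.150).

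In the list made for SRF and its cofactors 1 of 7 tested genes rose and 4 fell (14.3% and 57.1%, against 22.6% and 22.1% of all tested genes). These shares depend on which genes were listed: FHL1 was placed here and FHL2 among the linkers. The coactivator MRTFB rose from 41.0 ± 2.24 to 62.9 ± 2.70 CPM (n = 4, SD, log2 fold change 0.62, edgeR adjusted p = 5.36e-12), and of 12 other tested genes within 1 Mb on chromosome 16 9 were higher and 0 lower (median 0.36), a shift whose part in the MRTFB value was not tested. SRF itself and ELK3, both named after their values were seen, changed by -0.17 (edgeR adjusted p = 9.18e-04) and -0.09 (adjusted p = 0.0358), and ELK4 by -0.19 (adjusted p = 2.41e-04). FHL1, a LIM protein of muscle, fell from 9.01 ± 0.997 to 4.22 ± 0.359 CPM (n = 4, SD, -1.10, edgeR adjusted p = 1.32e-08). MRTFA, named after its value was seen, was not called (0.15, edgeR adjusted p = 0.0634). MYOCD, the muscle coactivator, and ABRA had no count.

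Among the other actin genes, ACTA1, ACTA2, ACTC1, ACTG2 and ACTBL2, ACTA2 was tested and was not called (log2 fold change -0.14, edgeR adjusted p = 0.762), and the others had at most 9 counts in any library. Of 10 further transgelin, calponin and tropomyosin-end genes 5 were tested, of which TPM3 rose, CNN3 fell and 3 were not called. That is 20% in each direction, near the 22.6% and 22.1% of all tested genes.

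**Figure D4:**
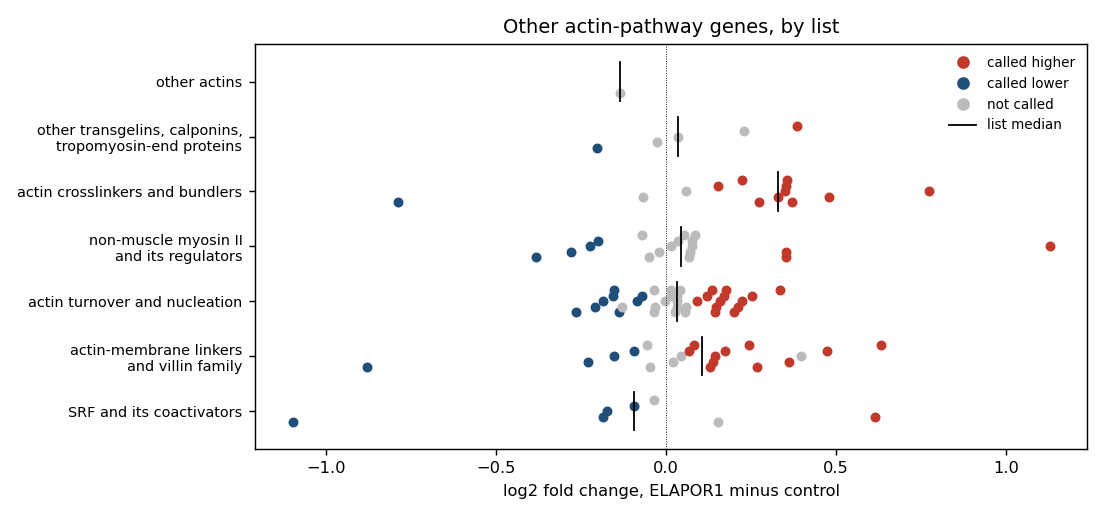
Log2 fold change (ELAPOR1 minus control) of the 99 tested genes of the 7 lists, 1 point per gene, coloured by the edgeR call (adjusted p-value under 0.05), with a bar at each list's median. Crosslinkers and bundlers sit mostly to the right of 0 (10 higher, 1 lower), while the myosin list lies on both sides (3 higher, 4 lower). Among all tested genes 22.6% were called higher and 22.1% lower.

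The genes whose log2(CPM + 1) followed that of TAGLN2 most closely over the 8 libraries, among 10694 others averaging 5 CPM or more, were TUBB, TBC1D2 and ELAPOR1 itself, with Pearson correlations of 0.999, 0.998 and 0.998. Such values mainly reflect the difference between the groups, and 665 genes had a correlation above 0.95. TUBB, a beta-tubulin, was at 1648 ± 5.94 CPM in control and 1998 ± 24.2 CPM in ELAPOR1 libraries, and TBC1D2, a regulator of RAB7, at 101 ± 1.28 and 175 ± 2.80 CPM (n = 4, SD).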

How the data were processed

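Libraries of 4 control and 4 ELAPOR1 samples were compared in a table of expected counts per gene that the authors deposited, with 1 column per library and no scaling. Per the submitters' processing notes, cutadapt, STAR, RSEM and DESeq2 were used with the build hg38; versions, annotation and strand setting are not given in the sources used here. Of the nonzero values 15.0% were not whole, as RSEM divides shared reads among genes.

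Expected counts were rounded to whole numbers; edgeR 4.0.16 (R 4.3.3) served for the test (filterByExpr, TMM, robust glmQLFit and glmQLFTest, two-sided, no covariate), with Benjamini-Hochberg adjustment over 13860 genes and a threshold of 0.05. SE is the log2 fold change divided by the square root of F. The members and lists were chosen with earlier results of these data known. Beyond the 10 members and ELAPOR1, the text names for each list up to 2 called genes in each direction with the largest change and a mean of at least 5 CPM, the 3 genes most like TAGLN2, and member pseudogenes with at least 10 counts in a library (AC098614.3 and, for ACTG1, AC098934.2, at most 13 counts); others named with a value were chosen after their values were seen, for their position or as cell type markers. List symbols were matched through the supplied gene names (58517 of 58870 IDs found). Coordinates, overlaps, lengths and 50-base stretches are from GENCODE release 29 (GRCh38), with the best-ranked APPRIS transcript, the longest among equals, for each gene, and 5 members carry another ID version in the deposited table; promoter sequences are from RefSeq (GRCh38.p14). Identity was counted in global alignments with Biopython 1.88. Alternatives were DESeq2 1.42.0, limma-voom 3.58.1, other scalings and filters, a replicate block, GC content and length trends (5-degree splines, for 99.8% of the genes tested), pseudogene counts added to the member, and each library left out. The procedure was also run on simulated counts with 200 changed genes. The outcome is not given here, so no error rate is claimed from it. Precision rests on the counts per gene, and the total counts per library are given with the results.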

Additional observations from a re-analysis of the deposited data

Results flagged for a closer look

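ACTN1 in control replicate 3, at 377.6 CPM, lay apart from the other control libraries, which were at 371.04 to 371.6 CPM. The gap was 0.912 of the range of the group, above the 95% critical value of Dixon for 4 libraries. It was the only such case among 70 groups of 4 examined (the members, the named genes, library totals and ratios), and chance alone would give about 1 in 20, or 3.5. The value was still below every ELAPOR1 library for ACTN1.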

How the results depend on the processing

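The direction of TAGLN2, TPM1, TPM2, TPM4, ACTB, CNN2, ACTN1, TAGLN and MYL9 was the same in all 18 alternatives with a value, and that of ACTG1 turned with GC content and length trends removed (0.0051). TAGLN2 ranged from 1.24 to 1.34, ACTB from 0.20 to 0.25, TPM1 from -0.43 to -0.34 and ACTN1 from 0.0071 to 0.08. With single libraries left out MYL9 ranged from 0.0097 to 0.18 (lowest without control replicate 4, highest without control replicate 3) and TAGLN from -0.31 to -0.06 (lowest without control replicate 1, highest without control replicate 3). The lowest ACTN1 value came with GC content and length trends removed, as did the highest TAGLN2 value. The median of the members was -0.016 to 0.030. No scaling moved the median of all genes by more than 0.1.

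The test against a 1.5-fold change called 215 genes, 124 higher and 91 lower, with 2 higher and 1 lower among the listed genes. At an adjusted p-value under 0.01, 34 listed genes were higher and 14 lower. With single libraries left out 5557 to 6316 genes were called, 2805 to 3125 higher and 2746 to 3191 lower, with 34 to 42 listed genes higher and 15 to 22 lower.

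Same-numbered replicates did not deviate together (correlations of -0.038 to 0.020), and 0 of 4 control libraries correlated best with their own number. With 4 libraries in a group this gives no sign of pairing but cannot exclude it, and the labels do not state a pairing. With the replicate number as a block 5926 genes were called, 2983 higher and 2943 lower, and 37 listed genes were higher and 17 lower. Differences of TAGLN, TPM2 and MYL9 are limited by their depth of 40 to 151 counts per library.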
